A study of Mus musculus with 5 samples.

Results

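ELMO proteins are scaffolds that bind and activate the DOCK180-type exchange factors, and this group holds the 3 mouse Elmo genes and the 5 Dock genes of the A and B subfamilies whose products bind ELMO. The members were named by gene family, and no measured value enters the rule that picks them. They are 8 of the 54232 genes in the table (Elmo1, Elmo2, Elmo3 and Dock1 to Dock5). RNA was sequenced from primary myoblasts of leg muscle, selected with magnetic beads for satellite cells and integrin-7 and kept for 72 h in low-serum medium, in which they fuse into myotubes. The WT group had 3 samples and the Elmo2EID/EID group had 2. Elmo2EID is a knock-in allele made by homologous recombination that changes isoleucine to aspartate (I196D) in the ELMO inhibitory domain, and both copies of Elmo2 carry it, in every cell of the animal rather than in muscle alone. The labels give no other allele or agent, and by the study's methods the mice were of mixed C57BL6 and 129SV descent. By the same source, the animals that gave myoblasts were 6 to 8 weeks old. The labels number the samples within each genotype but do not state that each came from a different animal. The study's methods say that its primary cell experiments typically drew on separate mice, without saying so of these samples, so the p-values measure the spread between these samples, which may be technical.

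In a resting cell ELMO is folded on itself, and binding of the active GTPase RhoG to its Ras-binding domain opens it. The open ELMO recruits DOCK to the membrane, where the catalytic DHR-2 domain of DOCK loads Rac with GTP and so drives actin remodelling. DOCK1 and DOCK5, members of the A subfamily, and the Drosophila DOCK protein Myoblast city are known for their part in the fusion of myoblasts. The isoleucine changed in Elmo2EID lies in a contact that holds the protein closed.

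The coding sequence around the changed codon is shown because it places the allele and shows how far the paralogs share it. Each line gives the 45 coding bases 5′ to 3′ from the reference transcripts of GENCODE M21 (GRCm38), with the codon of the changed residue, or the codon aligned to it, in capitals. The Elmo2 stretch lies in exon 8 of the transcript's 21 exons, on the minus strand of chromosome 2 (chr2:165308981-165309025), the Elmo1 stretch in exon 9 of 22, on the plus strand of chromosome 13 (chr13:20280851-20280895) and the Elmo3 stretch in exon 7 of 20, on the plus strand of chromosome 8 (chr8:105307078-105307122).
Elmo2: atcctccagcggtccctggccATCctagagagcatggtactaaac
Elmo1: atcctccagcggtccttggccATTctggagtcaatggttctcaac
Elmo3: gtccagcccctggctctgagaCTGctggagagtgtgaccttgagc
The sequence shown for Elmo2 is that of the reference allele, and the ATC codon stood at the same place (165309002 to 165309004) in all 5 complete coding transcripts of Elmo2. Elmo1 matched Elmo2 at 37 of the 45 bases and encoded the same 15 residues, isoleucine included. Elmo3 matched Elmo2 at 23 bases, differed at 10 of the 15 residues and had a leucine codon at the aligned position. A table of counts per gene holds no allele, so the knock-in could not be read from these data.

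The members are similar proteins, yet their transcripts differ enough for a short read to tell them apart. Over the whole protein, ELMO1 and ELMO2 were identical at 76.1% of 719 aligned residues, ELMO1 and ELMO3 at 54.0%, and ELMO2 and ELMO3 at 51.8%. Among the Dock proteins, DOCK1 and DOCK5 shared 66.8% of residues, DOCK1 and DOCK2 60.9%, DOCK2 and DOCK5 56.0%, and the B pair DOCK3 and DOCK4 59.3%. Across the subfamilies the share was between 38.9% and 39.8%. The longest identical coding run within each family is printed because it bounds the stretch over which reads of 1 member could also match another of that family.
Dock1 and Dock5: agagctgaagaagaaggtcacagccaaaat
Elmo1 and Elmo2: tgacctttaaccttctggaaga
The Dock1 and Dock5 run was 30 bases long, in exon 6 of both genes (chr7:134741090-134741119 and chr14:67846004-67846033), and the Elmo1 and Elmo2 run was 22 bases long, in exon 12 of Elmo1 and exon 11 of Elmo2 (chr13:20287958-20287979 and chr2:165298654-165298675). Reads were 50 bases long, and none of the 50-base windows of any member was found in the transcripts of another member. At most 0.31% of a member's windows (Dock3) matched the same strand of the transcripts of any other gene.

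The libraries held between 35021856 and 49381544 counted reads, of which 3 reads, taken as the floor of detection, equal 2.65 to 3.73 normalized counts, that is, reads divided by the size factor of the sample. These limits cover counting error only. Markers of myotubes, such as Myog, Mymk and Myh3, were abundant in every sample, and the 12 markers summed to between 2331872 and 2741194 normalized counts. Of 10 leukocyte markers 8 were above the floor, with sums of 163 to 176 in WT and 138 to 154 in Elmo2EID/EID samples, and Ptprc, the pan-leukocyte phosphatase CD45, did not exceed 3 reads in a sample. All 12 endothelial markers were above the floor, none was at 0 in any sample, and their sums did not overlap (795 to 2320 in WT, 4391 to 6531 in Elmo2EID/EID). WT replicate 2 had the lowest endothelial sum, and none of the 12 passed the test (adjusted p-values of 0.06525 to 0.3724 from limma). Yet all 12 were higher in Elmo2EID/EID with no overlap between the groups, beside 32.6% of all genes tested that did not overlap. Their median log2 fold change was 2.38, and 11 had an unadjusted p under 0.05 from limma, beside 15.2% of all genes. The paper lists Robo4 and Esam, both among the 12, as up in Elmo2EID myoblasts. Of 8 epithelial markers, 4 did not exceed the floor, among them Krt5 and Esrp1, listed at 0, and the sums were 593 to 886 in WT and 309 to 378 in Elmo2EID/EID. Of 9 fibro-adipogenic markers 7 were above the floor and the sums overlapped (4512 to 18868 and 8303 to 16137), and of 6 neuronal markers 3 were above the floor, Tubb3, Map2 and Stmn2, while Snap25 was listed at 0 and Syt1 and Rbfox3 did not exceed the floor. The neuronal sums overlapped (527 to 766 in WT, 501 to 629 in Elmo2EID/EID), but Stmn2, singled out after its values were seen, did not, with 13.3, 11.2 and 22.4 in WT against 62.6 and 49.3 in Elmo2EID/EID samples (log2 fold change 1.82, adjusted p = 0.0609 from limma). The 8 Schwann markers summed to 16193 to 17092 in WT and 15621 to 16065 in Elmo2EID/EID samples, nearly all of it from Erbb3. In bulk samples, fewer cells of a type and less RNA per cell cannot be told apart.

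Levels of different genes were compared per kilobase of merged exons, since a longer transcript gives more reads. Elmo2 was the most abundant member, at 228.7 normalized counts per kb (lowest 199.5, highest 249.5 over the 5 samples), and stood at the percentile 66.5 of all tested genes. Dock5 followed at 123 per kb (111 to 145), and Dock1, the founding DOCK180 gene, at 66.7 per kb (55.4 to 83.0). The ranges of these 3 genes did not overlap each other or that of any other member. Dock3, best known as a neuronal exchange factor, was at 36.1 per kb (31.2 to 45.1), and Elmo3 at 35.1 per kb (28.5 to 44.2), and these neighbours overlapped. Dock4, the other B member, was at 20.5 per kb (17.6 to 26.2) and Elmo1 at 4.88 per kb (3.56 to 6.06), at the percentile 15.2. Dock2, the exchange factor of blood cells, was at or below 1 read in every sample. Elmo3 and Dock4 exchanged places when levels were taken per kilobase of coding sequence or of the longest coding transcript, and Dock1 overlapped Dock3 on the coding scale. The merged exons of Dock4 span 22923 bases, its longest coding transcript 8552 and its coding sequence 5934.

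**Figure D1:**
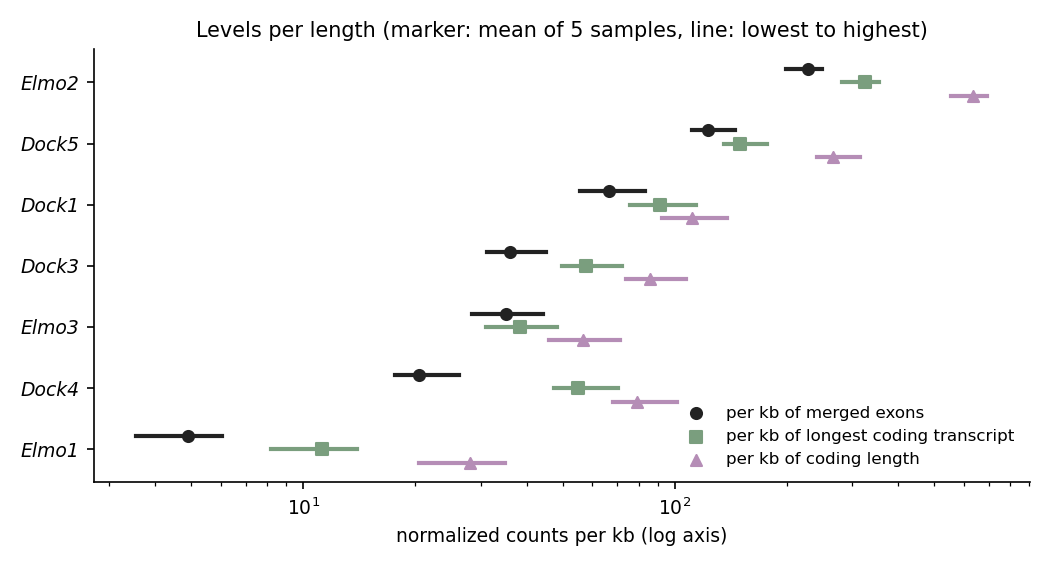
Normalized counts per kb on a log axis for the 7 members above the floor, by 3 definitions of length. Markers are means over the 5 samples of both groups and lines run from the lowest to the highest sample. Elmo2 stood above Dock5, and Dock5 above Dock1, by each definition, while Dock4 moved from below Elmo3 to above it. Dock2, with at most 1 read a sample, is left out.

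The 3 Elmo genes therefore had very unequal levels. Elmo2 made up 86.3%, 86.0% and 83.9% of the summed Elmo level per kb in WT against 86.9% and 82.4% in Elmo2EID/EID samples. Elmo3 made up between 11.4% and 15.5%, and Elmo1 between 1.20% and 2.25%. Per kb of coding length, Elmo3 made up 6.84% to 9.42% and Elmo1 2.61% to 4.80%, and per kb of the longest coding transcript Elmo1 made up 2.00% to 3.71%. In each sample Elmo2 was at least 38.2 times as abundant as Elmo1 per kb and at least 5.31 times as abundant as Elmo3. These lowest ratios were 18.4 and 9.15 per kb of coding length and 23.5 and 6.89 per kb of the longest coding transcript. Among the Dock genes, Dock5 made up 46.7% to 54.7% of the A and B sum, Dock1 23.3% to 31.9%, Dock3 11.8% to 18.8% and Dock4 6.78% to 11.0%. The share of Dock4 was 12.2% to 18.7% per kb of coding length and 12.9% to 20.0% per kb of the longest coding transcript. Dock5 was above Dock1 in every sample, by a factor of 1.51 to 2.16. Per kb of merged exons the summed Elmo and Dock levels were close. Their ratio was 1.10, 1.18 and 1.12 in WT against 1.04 and 1.02 in Elmo2EID/EID samples. Per kb of coding length it was 1.383, 1.463 and 1.353 in WT against 1.255 and 1.189 in Elmo2EID/EID samples. Per kb of the longest coding transcript it was 1.087, 1.155 and 1.096 in WT against 0.993 and 0.955 in Elmo2EID/EID samples.

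**Figure D2:**
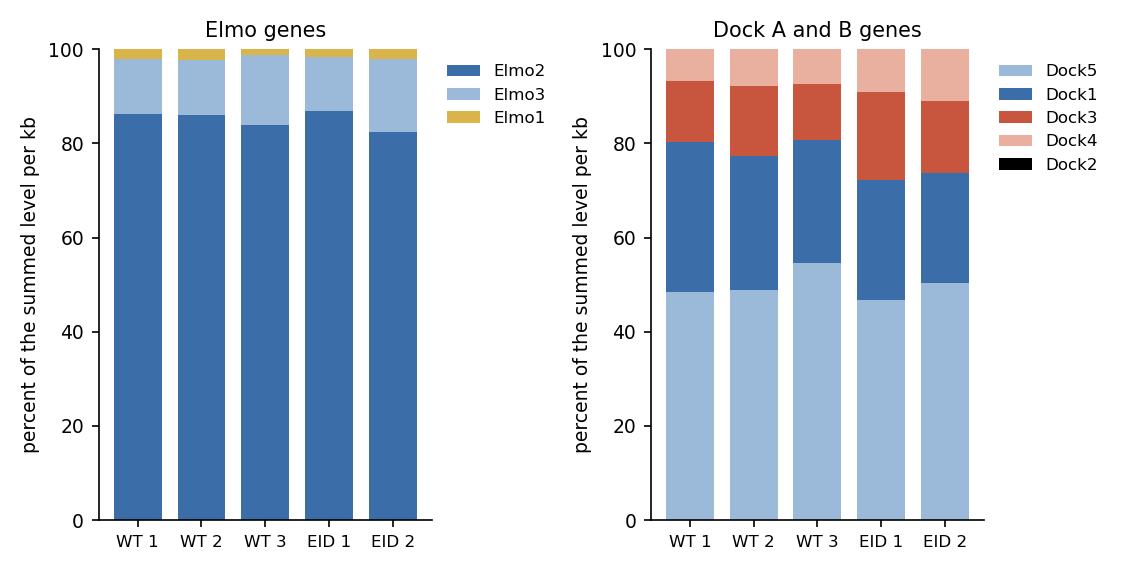
Share of the summed level per kb of merged exons (percent) taken by each Elmo gene (left) and each Dock A or B gene (right) in each WT and Elmo2EID/EID (EID) sample. Elmo2 took 82.4% to 86.9% of the Elmo sum and Dock5 46.7% to 54.7% of the Dock sum. Dock2 is too low to be seen.

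The comparison of Elmo2EID/EID with WT asked whether the cells that carry the altered scaffold also differed in the RNA of the scaffold, its paralogs or its partners. None of the 7 members that passed the filter of at least 5 normalized counts in 1 sample was called at an adjusted p-value under 0.05 by limma, edgeR or DESeq2. Over all 18156 genes tested, limma called 404 (2.23%), with 197 genes up (1.09%) and 207 genes down (1.14%) in Elmo2EID/EID, and edgeR called 408 (2.25%). DESeq2 called 961 of the 17287 genes to which it gave an adjusted p-value (5.56%). At an unadjusted p under 0.05, 4 of the 7 members passed limma's test, beside 15.2% of all genes tested, and the same 4 did not overlap between the groups, beside 32.6% of all genes. The number at an unadjusted p under 0.05 was 0 without WT replicate 1, 3 without WT replicate 2, 1 without WT replicate 3, 2 without Elmo2EID/EID replicate 1 and 1 without Elmo2EID/EID replicate 2. In the fit of all samples they were Elmo2 and Dock1, with both Elmo2EID/EID samples below every WT sample, and Dock3 and Dock4, with both above. All values below are normalized counts, and a fold change, taken on log2(normalized count + 1), is positive where Elmo2EID/EID was above WT.

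**Figure D3:**
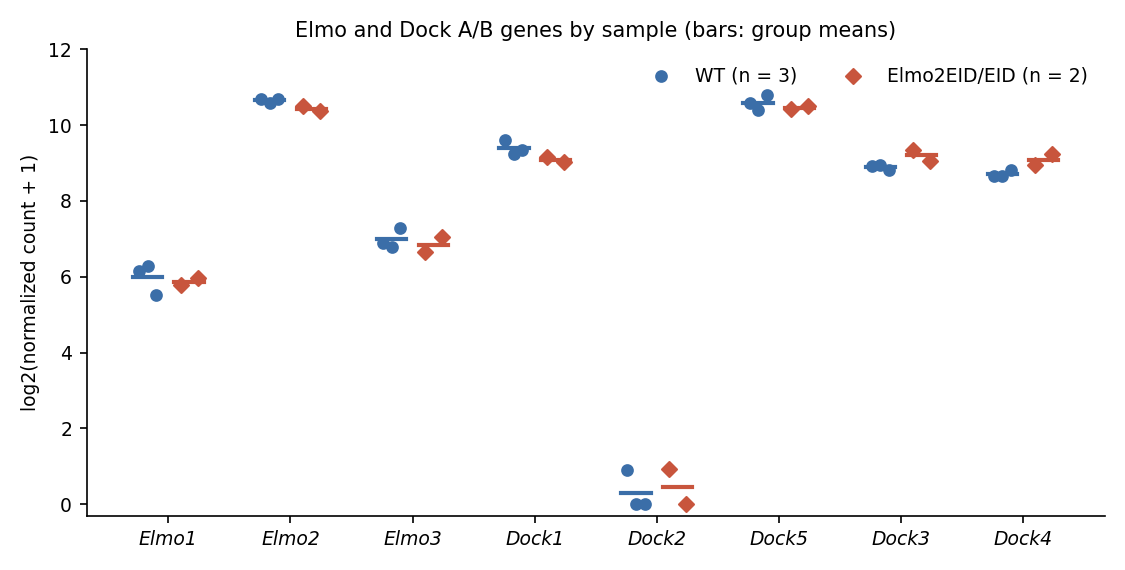
Level of each member in each sample, as log2(normalized count + 1), with horizontal bars at the group means on that scale. The groups stood apart at Elmo2 and Dock1, where both Elmo2EID/EID samples were below all WT samples, and at Dock3 and Dock4, where both were above, and overlapped at Elmo1, Elmo3, Dock2 and Dock5.

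Elmo2, the gene that carries the knock-in, had 1642, 1539 and 1660 normalized counts in WT against 1441 and 1327 in Elmo2EID/EID samples. The gap between the nearest samples of the 2 groups was narrower than the spread among the WT samples. The log2 fold change came to -0.22 (standard error 0.07), with an adjusted p of 0.226 from limma and a 95% interval of 0.758 to 0.970 for the fold. Elmo1, the paralog with the same residues around the changed codon, had 70.7, 76.3 and 44.8 in WT against 53.7 and 61.9 in Elmo2EID/EID samples. Both Elmo2EID/EID values lay within the WT range, and the log2 fold change came to -0.11 (standard error 0.28, adjusted p = 0.895 from limma). With 313 reads over the 5 samples, the 95% interval of the Elmo1 fold ran from 0.584 to 1.47, so that neither a fall nor a rise by less than these folds could be told from no difference. Elmo3, known mainly from epithelial cells, had 118, 110 and 154 in WT against 99.3 and 131 in Elmo2EID/EID samples, again with overlap. For Elmo3, the log2 fold change came to -0.14 (standard error 0.21, adjusted p = 0.816 from limma, interval of the fold 0.637 to 1.29). The sign of the Elmo1 and Elmo3 differences changed when single samples were left out. The summed Elmo level per kb was 286, 269 and 297 in WT against 249 and 242 in Elmo2EID/EID samples, which follows Elmo2, the bulk of the sum.

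Of the A subfamily, Dock1 had 774, 604 and 646 normalized counts in WT against 572 and 517 in Elmo2EID/EID samples. WT replicate 1 was the highest sample, and both Elmo2EID/EID samples were below the lowest WT sample. For Dock1, the log2 fold change came to -0.30 (standard error 0.13, adjusted p = 0.322 from limma), and the interval of the fold was 0.659 to 0.997. Dock5, the most abundant of the Dock members, had 1529, 1352 and 1764 in WT against 1364 and 1459 in Elmo2EID/EID samples, all of the latter within the WT range. For Dock5, the log2 fold change came to -0.13 (standard error 0.12, adjusted p = 0.682 from limma, interval of the fold 0.756 to 1.11). Dock2 had 1 read in WT replicate 1 and 1 in Elmo2EID/EID replicate 1 and none in the other samples, so both groups were under the floor and no fold was taken.

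Of the B subfamily, Dock3 had 483, 494 and 450 normalized counts in WT against 652 and 529 in Elmo2EID/EID samples. The WT samples were close together, and the Elmo2EID/EID samples differed from each other by more than the lower one differed from WT. For Dock3, the log2 fold change came to 0.30 (standard error 0.12, adjusted p = 0.284 from limma, interval of the fold 1.02 to 1.50). Dock4, whose product acts on Rac and has also been linked to Rap1, had 404, 404 and 451 in WT against 494 and 601 in Elmo2EID/EID samples. For Dock4, the log2 fold change came to 0.38 (standard error 0.12, adjusted p = 0.201 from limma, interval of the fold 1.07 to 1.58), the smallest adjusted p among the members. The higher sample differed between the genes, replicate 1 for Dock3 and replicate 2 for Dock4.

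**Figure D4:**
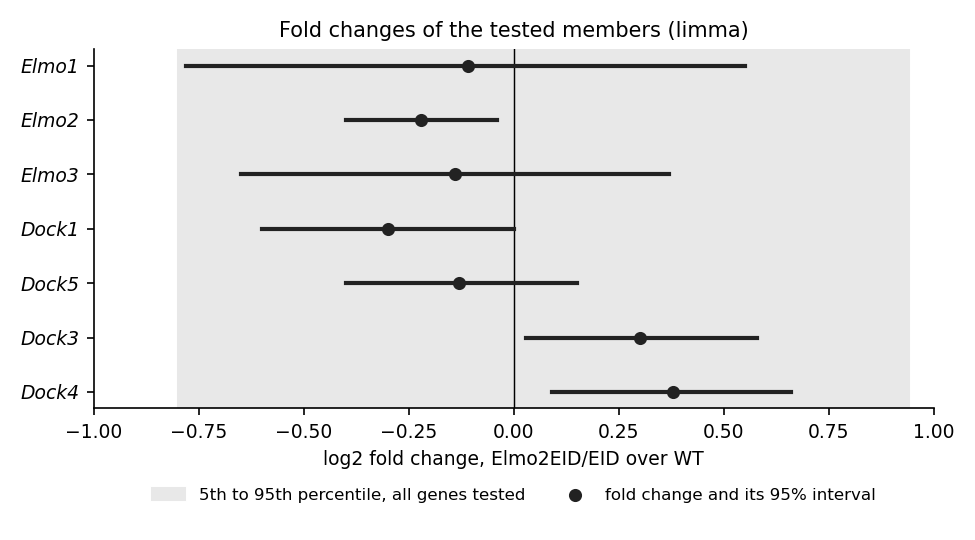
Log2 fold change, Elmo2EID/EID over WT, of the 7 tested members with its 95% interval from limma. The grey band spans the 5th to the 95th percentile of all genes tested, -0.80 to 0.94. All 7 point values lie within the band, from -0.30 for Dock1 to 0.38 for Dock4, and none passed the adjusted threshold.

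Side by side, the A members were level or lower and the B members higher in the Elmo2EID/EID samples, none of them past the test. Dock1 and Dock5 together were at 209, 176 and 214 normalized counts per kb in WT against 173 and 175 in Elmo2EID/EID samples. Dock3 and Dock4 together were at 51.1, 51.8 and 50.8 per kb in WT against 66.7 and 62.8 in Elmo2EID/EID samples. The A sum over the B sum was 4.09, 3.39 and 4.22 in WT against 2.60 and 2.79 in Elmo2EID/EID samples, with no overlap between the groups. Per kb of the longest coding transcript it was 2.65, 2.20 and 2.65 in WT against 1.70 and 1.73 in Elmo2EID/EID samples, again with no overlap. These sums were formed after the values of the members were seen and were not tested. The endothelial marker sum (4391 to 6531 in Elmo2EID/EID, 795 to 2320 in WT) separated the same samples as the 4 members without overlap. The epithelial, leukocyte and Schwann sums separated them too, with Elmo2EID/EID below WT (epithelial 308.5 to 378.3 against 593.4 to 886.3). The part of these marker sums in the differences of the 4 members was not tested. Without WT replicate 2, the lowest in endothelial markers, the log2 fold changes were -0.26 for Elmo2, -0.38 for Dock1, 0.33 for Dock3 and 0.35 for Dock4, with adjusted p-values from limma of 0.291, 0.305, 0.398 and 0.382. The endothelial sums of the groups still stood apart after that omission (2104 and 2320 left in WT). Genotype and endothelial content therefore cannot be told apart by it.

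Reads on the opposite strand were counted apart, because the libraries were stranded and counted by strand. Of 20 annotated genes that overlap a member, 6 lie on its own strand and were listed at 0 in every sample. The highest of the others was Fam196a, on the opposite strand within Dock1, with 12.4, 23.6 and 7.46 normalized counts in WT against 2.68 and 5.38 in Elmo2EID/EID samples. The antisense transcript 4930524O07Rik of Dock3 had between 9.72 and 17.0, and Fam196b, opposite to Dock2, between 0 and 12.6. The microRNA genes Gm27320 and Mir328, opposite to Elmo3, reached 8.97 and 5.61. No other overlapping gene reached the filter, and none overlaps Elmo2 or Dock4.

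The rest of the pathway was described through 8 lists of 61 genes, of which 57 passed the filter, and limma called 2 of the 57, 1 higher and 1 lower, beside 2.23% of all genes tested, so that the number of calls says nothing particular of these lists. The median log2 fold change over the 57 was 0.04, beside 0.01 over all genes tested, and 23 of them did not overlap between the groups, beside the 32.6% of all genes. Both called genes encode proteins that turn Rac off by speeding the hydrolysis of its GTP. Chn2, beta-chimaerin, a Rac GTPase-activating protein that binds diacylglycerol, had 149, 173 and 168 normalized counts in WT against 825 and 595 in Elmo2EID/EID samples. It rose by 2.10 on the log2 scale (standard error 0.16, adjusted p = 0.002336 from limma). Arhgap22, a further Rac GTPase-activating protein, had 1647, 1670 and 1351 in WT against 851 and 840 in Elmo2EID/EID samples and fell by 0.87 on the log2 scale (standard error 0.11, adjusted p = 0.0125 from limma). The call of Arhgap22 was lost without WT replicate 1, Elmo2EID/EID replicate 1 or Elmo2EID/EID replicate 2, with adjusted p-values from limma of 0.0662, 0.129 and 0.189 (0.00672 to 0.189 over all 5 omissions), and that of Chn2 was kept without each sample in turn. The 13 tested genes of this list of 14 had a median of 0.04, and its most abundant genes per kb, Chn1 (log2 fold change 0.17, adjusted p = 0.424) and Abr (-0.42, adjusted p = 0.122), were not called by limma. DESeq2 called 4 of the 57, beside its 5.56% of all genes, the added genes being Abr and Prex2, an exchange factor of Rac with 46.8, 29.2 and 58.4 in WT against 92.1 and 161 in Elmo2EID/EID samples. These 2 are named for that call, after their values were seen. Prex2 ranked the samples as the endothelial marker sum did, from WT replicate 2, the lowest, to Elmo2EID/EID replicate 2, the highest. The part of endothelial content in the differences of the pathway genes was not tested.

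**Figure D5:**
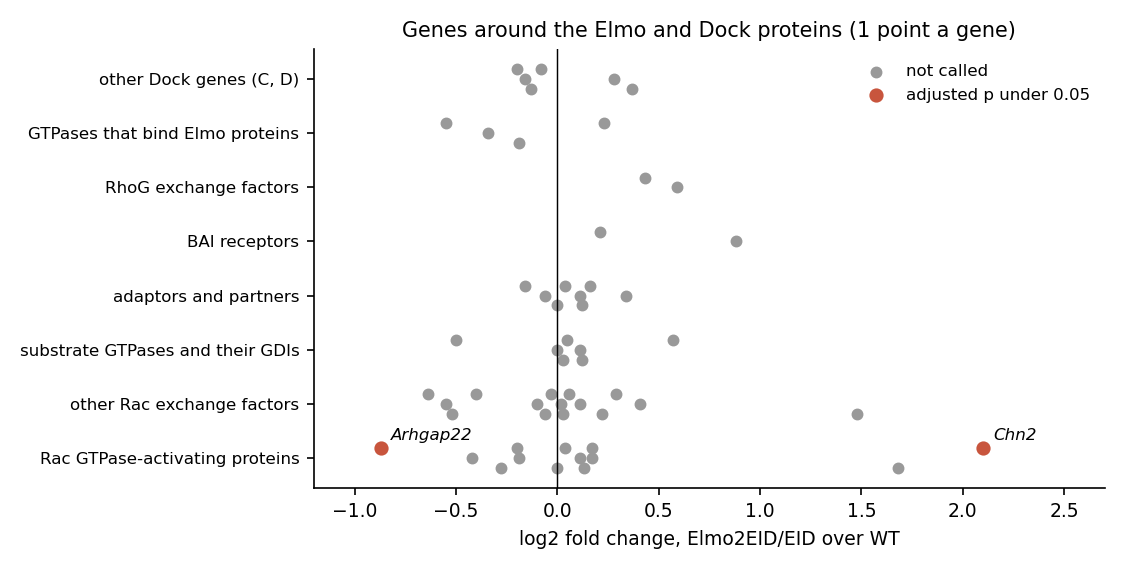
Log2 fold change, Elmo2EID/EID over WT, of the 57 tested genes of the 8 lists, 1 point a gene, with called genes in red. The 2 called genes, Chn2 at 2.10 and Arhgap22 at -0.87, encode Rac GTPase-activating proteins, and the other 55 points lie between -0.64 and 1.68.

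None of the genes in the other 7 lists was called by limma. RhoG, the GTPase that opens ELMO, was present at 1909, 1877 and 2034 normalized counts in WT against 1684 and 1726 in Elmo2EID/EID samples (gene Rhog, log2 fold change -0.19, adjusted p = 0.265 from limma). Arl4a, a GTPase of the Arf family whose product binds ELMO, was the next most abundant per kb of that list (log2 fold change 0.23, adjusted p = 0.539 from limma). At both RhoG exchange factors the groups did not overlap, with Elmo2EID/EID above WT, but neither passed the test. Arhgef26, known as SGEF, had 2099, 2073 and 1765 in WT against 2303 and 3081 in Elmo2EID/EID samples (log2 fold change 0.43, adjusted p = 0.205 from limma), and Arhgef16 had 65.4, 81.9 and 58.4 in WT against 84.1 and 125.5 in Elmo2EID/EID samples (0.59, adjusted p = 0.333). The BAI receptors, adhesion receptors whose tails bind ELMO, were scarce. Adgrb1 reached 7.16 and Adgrb2 8.07 normalized counts in the highest sample, and Adgrb3 was listed at 0 in all, which allows up to 3 reads a library.

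Downstream of the exchange factors, the substrate GTPase Rac1 was at 2214 per kb, and the GTPase Cdc42, of the same list, at 6637 per kb. Rac1 had 10530, 9600 and 9722 normalized counts in WT against 9983 and 9927 in Elmo2EID/EID samples (log2 fold change 0.00, standard error 0.07, adjusted p = 0.994 from limma). Cdc42 and the inhibitor Arhgdia, at 6493 per kb, were the most abundant of their list per kb, with log2 fold changes of 0.12 and 0.11 (adjusted p = 0.429 and 0.485 from limma), and Rac2, the blood cell paralog, did not exceed 2 reads. Among the partners of ELMO and DOCK, the integrin-linked kinase Ilk and the cytoskeletal linker Macf1 led at 3778 and 2735 per kb, with log2 fold changes of 0.12 and 0.34 (adjusted p = 0.527 and 0.294 from limma). Of 21 Rac exchange factors ranked per kb of merged exons, Trio was the first at 596 and Sos2 the second at 414. Dock5 was at rank 9, Dock1 at rank 11, Dock3 at rank 14, Dock4 at rank 16 and Dock2 at rank 21. Neighbours were not distinct where ranges overlapped, as for Dock1 and Def6 (46.2 to 81.7) at rank 10. The same held for Dock4 and Tiam1 (16.5 to 25.4) at rank 17. Ranks by the other definitions of length were not taken. The log2 fold changes of Trio and Sos2 were -0.03 and 0.11 (adjusted p = 0.948 and 0.620 from limma). Dock6, a Dock gene of the C subfamily, whose products do not bind ELMO, was at 135 per kb, with a log2 fold change of -0.08 (adjusted p = 0.740 from limma), and its range overlapped that of Dock5.

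The genes whose pattern over the 5 samples was most like that of Elmo2, by the root mean square difference of centred log2 values over the 11222 genes whose mean reached 100, were Atp23, a mitochondrial protease (0.013), Dmwd (0.020) and Rhno1, a protein of the DNA damage response (0.020). Those most like Dock1 were the phosphatase gene Dusp5 (0.039), Ints6l (0.041) and the pseudogene 2810025M15Rik (0.041). Atp23 had 132.5, 124.5 and 137 normalized counts in WT against 118 and 109 in Elmo2EID/EID samples, and Dusp5 had 856, 621 and 687 in WT against 589 and 553 in Elmo2EID/EID samples. With 5 samples in 2 groups, such likeness is a description of these libraries.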

How the data were processed

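Poly-A RNA of 5 samples was sequenced as stranded paired reads. Per the labels and the study's methods, alignment by the authors used STAR 2.5.1b on GRCm38, and featureCounts 1.4.6 counted unique alignments per gene and strand. The deposited values are a signal, namely these counts over the DESeq2 1.34.0 size factor. The smallest positive value of a sample was taken as 1 read, and 100.0% of positive values were whole within 0.01. GENCODE M21 matched 54165 of 54232 identifiers and gave lengths and sequences. The study's methods name another annotation release for counting, so the lengths behind each level per kb may differ from the gene models counted. Proteins translated from coding transcripts were aligned with Biopython 1.88, taking the longest complete coding transcript, for Elmo2 the one nearest to Elmo3 in length.

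The main test was limma 3.58.1 (lmFit and eBayes with trend, R 4.3.3), two-sided, on log2(normalized count + 1), on the 18156 genes that reached 5 normalized counts in any sample, with p-values adjusted over all of them (Benjamini-Hochberg) and called under 0.05. The 95% intervals come from that fit. An exact permutation of 3 against 2 samples cannot give a p under 0.1. Replicates differed by more than sampling noise (chi-square per degree of freedom 26.6 to 37.8). edgeR 4.0.16 and DESeq2 1.42.0 on recovered reads, other pseudocounts, filters and scalings, a replicate block and omission of each sample were alternatives. Tests were tried on simulated data.

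The gene family and the lists were taken up for description with earlier results of these data known, although the rule for the members uses no measured value. Named genes were all members, genes overlapping them, the called genes and the 2 most abundant per kb of each list, and the 3 genes most like Elmo2 and Dock1. For 1 gene of these lists, the values are not reported here.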

Additional observations from a re-analysis of the deposited data

How the results depend on the processing

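No member was called under any of the 16 alternatives, and the smallest adjusted p of a member in any of them was 0.103. Of 112 member fold changes refitted, 107 kept their sign. The 4 members at an unadjusted p under 0.05 became 1 without limma's trend and 2 with a replicate block. On the log2 scale, Elmo1 turned to 0.03 without WT replicate 2, and Elmo3 turned to 0.004 with a replicate block, with the crossed block and without WT replicate 3, and to 0.06 without Elmo2EID/EID replicate 1. Leaving out each sample in turn gave -0.34 to 0.03 for Elmo1, -0.34 to 0.06 for Elmo3, -0.28 to -0.16 for Elmo2, -0.38 to -0.20 for Dock1, 0.15 to 0.46 for Dock3, 0.24 to 0.52 for Dock4 and -0.22 (without WT replicate 2) to -0.03 (without WT replicate 3) for Dock5.

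The 404 genes called by limma became 155 with no filter, 144 without the trend and 961 with DESeq2, and 34 to 335 with a sample left out, namely 134, 203 and 335 without WT replicates 1, 2 and 3 and 94 and 34 without Elmo2EID/EID replicates 1 and 2. The 2 pathway genes called became 4 with DESeq2 and 1 to 3 with a sample left out. With 1 sample left in a group, that sample is assumed to vary like the others. The cause of these shifts was not tested. In a fit with a replicate block 224 genes were called. The labels do not state that samples of the same number are paired. The differences between replicates 1 and 2 of the genotypes correlated at -0.238 over 13769 genes, which cannot settle it. A crossed block, added after the data were seen, called 1041.

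Elmo2 made up 85.1% of the Elmo level per kb of merged exons and 88.2% per kb of coding length. Dock1 made up 27.1% of the Dock level per kb of merged exons and 20.5% per kb of coding length, and Dock5 49.8% and, per kb of the longest coding transcript, 42.2%. Depth limits Elmo1, with 36 to 80 reads a sample, and Dock2, with 2 reads in all.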
